A study of Mus musculus with 6 samples.

Results

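Macrophages change their gene programmes with the tissue they live in, and 9 genes widely used to describe such programmes were followed here in single cells of mammary glands and mammary tumours. All 9 are among the 31055 features counted, and 8 are described: Spp1, Cx3cr1, Marco, Mrc1, Trem2, Gpnmb, Folr2 and Lyve1. They were chosen by name as polarization and scavenger genes, and Spp1, Cx3cr1 and Marco were put on the list because their measured level in macrophages changed with disease state in these same libraries. The levels of those 3 genes in macrophages are therefore a description and carry no test. The other 5 were tested in macrophages, and those of the 8 that could be fitted were tested in epithelial-like and fibroblast-like cells.

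The mice were female C3(1)-Tag animals, a transgenic model developed on the FVB/NJ background in which the C3(1) promoter drives the SV40 large T antigen and mammary tumours arise spontaneously. Every group carried the transgene, so none of the groups is a normal gland. Whole glands at 5 weeks of age (Prepuberty), whole glands at 14 weeks with ductal carcinoma in situ (DCIS) and palpable tumours from animals over 18 weeks old (Tumor) gave 2 libraries each, 6 in all, and neither age nor tissue sampled can be told apart from state. Labels and study methods disagree on whether tumours were dissociated with the same enzymes as glands and on whether Tumor 2 was made with a later kit version. If the methods hold, dissociation and state cannot be told apart. The labels do not say whether the libraries of a state came from different animals, so every p-value below measures the spread between libraries, which may be technical.

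As background, macrophages clear dead cells, lipid and matrix through surface scavenger receptors and answer the tissue with secreted proteins and enzymes. In tumours, one often described programme pairs the secreted phosphoprotein osteopontin with the lipid-sensing receptor TREM2 and with genes of lysosomes and lipid handling. Another, in normal glands, pairs the mannose receptor with LYVE1 and the folate receptor FOLR2 in cells that lie along vessels and in stroma. The fractalkine receptor CX3CR1 marks tissue macrophages and patrolling monocytes, including macrophages that lie along the mammary ducts.

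The promoters of Spp1, Cx3cr1 and Marco, whose change with state put them on the list, and of Trem2, which passed the test against Prepuberty in both later states, are printed to show what precedes these genes. Each is the 250 bases upstream of the RefSeq start in the GRCm38.p6 assembly, 5′ to 3′ on the strand of the gene, and capitals mark matches to the motifs searched. Spp1 is chr5:104434861-104435110 on the plus strand, Cx3cr1 is chr9:120068297-120068546 on the minus strand, Marco is chr1:120505025-120505274 on the minus strand and Trem2 is chr17:48346151-48346400 on the plus strand.
Spp1: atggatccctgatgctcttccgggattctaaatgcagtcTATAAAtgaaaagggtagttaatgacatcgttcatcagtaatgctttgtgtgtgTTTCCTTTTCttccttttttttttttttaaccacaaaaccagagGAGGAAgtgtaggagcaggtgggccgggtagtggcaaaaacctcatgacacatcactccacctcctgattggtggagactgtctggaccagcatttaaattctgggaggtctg
Cx3cr1: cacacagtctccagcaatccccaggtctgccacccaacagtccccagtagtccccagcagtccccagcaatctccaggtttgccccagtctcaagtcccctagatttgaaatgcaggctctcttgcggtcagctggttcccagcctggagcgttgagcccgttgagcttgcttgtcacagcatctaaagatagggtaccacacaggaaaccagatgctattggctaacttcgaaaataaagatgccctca
Marco: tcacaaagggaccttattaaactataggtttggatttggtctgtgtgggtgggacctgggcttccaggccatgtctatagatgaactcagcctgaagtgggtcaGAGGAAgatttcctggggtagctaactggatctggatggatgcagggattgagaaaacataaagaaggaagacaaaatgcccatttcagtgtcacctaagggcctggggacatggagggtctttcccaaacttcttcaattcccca
Trem2: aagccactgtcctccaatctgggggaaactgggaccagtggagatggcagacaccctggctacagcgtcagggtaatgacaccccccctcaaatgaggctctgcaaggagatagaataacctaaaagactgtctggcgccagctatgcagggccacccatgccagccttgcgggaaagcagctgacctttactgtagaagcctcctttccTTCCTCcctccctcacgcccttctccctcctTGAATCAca

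The motifs, searched on both strands, were the PU.1/ETS core GAGGAA, the AP-1 site TGANTCA, the E-boxes CACGTG and CATGTG bound by the MITF and TFE3 family, the core of the interferon-stimulated response element (ISRE) and the TATA box TATAAA. Spp1 held GAGGAA, the letters TATAAA 211 bases before the start and, on the opposite strand, the ISRE core. Marco held 1 GAGGAA, and Trem2 held TGANTCA near the start and GAGGAA on the opposite strand, whereas the Cx3cr1 window held none of the 6 motifs. Over 32851 promoter windows of the same length, GAGGAA stood in 23.25%, TGANTCA in 6.749%, CACGTG in 6.021%, CATGTG in 12.25%, the ISRE core in 2.977% and TATAAA in 12.37%. Mrc1 held 3 GAGGAA and 2 CATGTG, and Gpnmb and Folr2 held none. A promoter entry was found for 7 of the 8 members described, all but Lyve1. A match is a match of letters only.

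In the GENCODE vM21 annotation of GRCm38, Spp1 (ENSMUSG00000029304) lies at chr5:104435118-104441050 on the plus strand, Trem2 (ENSMUSG00000023992) at chr17:48346401-48354147 on the plus strand and Gpnmb (ENSMUSG00000029816) at chr6:49036546-49070929 on the plus strand. Mrc1 (ENSMUSG00000026712) lies at chr2:14229392-14332057 on the plus strand, Marco (ENSMUSG00000026390) at chr1:120474538-120505024, Folr2 (ENSMUSG00000032725) at chr7:101839988-101857194 and Lyve1 (ENSMUSG00000030787) at chr7:110850607-110863239, the last 3 on the minus strand. Cx3cr1 (ENSMUSG00000052336) lies on the minus strand at chr9:119901616-120069879. That span is long because 1 weakly supported transcript runs across 3 genes of the same strand, Gorasp1, Csrnp1 and Xirp1, though none of its exons overlaps an exon of theirs. The main Cx3cr1 transcript ends well apart from them, at chr9:120048683-120068296. Folr2 overlaps the opposite-strand feature Gm10602.

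The 6 libraries kept 21537 cells with 237053414 UMIs (unique molecular identifiers, each 1 counted RNA molecule), between 2548 and 4306 cells a library with medians of 6541 to 13631.5 UMIs a cell. Pairs of libraries shared 9 to 39 cell barcodes, at most 0.913% of the smaller library. Macrophages came from the 1 macrophage-like cluster of 1208 cells, and 757 of them held at least 2 UMIs summed over C1qa, C1qb and C1qc, the subunits of complement C1q that tissue macrophages make. These are called C1q-positive macrophages, and the others C1q-low myeloid cells. They numbered 66 and 27 in Prepuberty 1 and 2, 184 and 129 in DCIS 1 and 2, and 272 and 79 in Tumor 1 and 2, or 1.56% and 0.772%, 5.97% and 3.33%, and 6.32% and 3.10% of the cells of the library.

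All 10 macrophage markers had UMIs in the C1q-positive cells of every library, with a summed level of 6377 to 21100 CPM (the UMIs of a gene as a share of all UMIs of that class in that library, on the usual CPM scale). The cluster was named from this list, and the C1q genes of the gate are on it, so these values are no test of the name. The neutrophil markers Retnlg and Ly6g were at 0 in every library, and the neutrophil list summed to 49.6 to 628 CPM. The T cell list summed to at most 26 CPM, the epithelial list to 27 to 182 CPM and the fibroblast list to 20 to 208 CPM. The osteoclast list had UMIs of 5 or 6 of its 8 genes in every library and summed to 331 to 705 CPM, with Calcr and Oscar at 0 throughout. The cells differed between states in 2 further ways that move with the results below. Cells with at least 3 UMIs summed over the 10 proliferation genes, called cycling cells, made up 16.7% and 11.1% of C1q-positive macrophages in Prepuberty, 5.43% and 2.33% in DCIS and 27.2% and 48.1% in Tumor. They were counted without thinning, at median depths of 4885 and 4932, 6560.5 and 5538, and 6158 and 10187 UMIs, and the part of depth was not tested. C1q itself stood at 3780 and 5497, 4670 and 6396, and 16770 and 9546 CPM. Prepuberty 2, with 27 macrophages and 148074 UMIs, was the thinnest sum of all.

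Spp1, which encodes osteopontin, a secreted ligand of integrins and CD44, had the most UMIs of these members in the macrophages of DCIS and Tumor. Its level was 32.2 and 6.75 CPM in Prepuberty 1 and 2, 2415 and 2340 CPM in DCIS 1 and 2, and 4294 and 3543 CPM in Tumor 1 and 2, which rest on 11 and 1, 3113 and 1743, and 7865 and 2972 UMIs. The states averaged 19.5 ± 18.0, 2377 ± 52.6 and 3919 ± 531 CPM (SD, n = 2 libraries each). Both Prepuberty libraries lay far under all 4 others. From the UMI sums, Spp1 was 97.4-fold higher in DCIS than in Prepuberty (95% counting interval 55.7 to 189), and 74.1- to 353-fold with any 1 library left out.

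The difference between Tumor and DCIS was of another order and depended on the scaling. Tumor macrophages held 1.70 times the Spp1 of DCIS macrophages per UMI, with no overlap between the libraries. After TMM scaling, which corrects for the composition of each sum, the levels were 2903 and 2702 CPM in DCIS 1 and 2 and 3887 and 2467 CPM in Tumor 1 and 2, so that the groups overlapped. The TMM-based log2 fold change was 0.20 (SE 0.51), and it was -0.17 without Tumor 1. Scaling by library totals alone moved the median of all genes in macrophages by -0.11 for DCIS against Prepuberty, by 0.57 for Tumor against DCIS and by 0.46 for Tumor against Prepuberty on the log2 scale, and fold changes below are TMM-based unless a ratio of UMI sums is named.

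Spp1 was also seen in more cells. With each cell thinned to 2000 UMIs, 4.84% and 0% of macrophages had a Spp1 UMI in Prepuberty 1 and 2 (0 of 26 cells, which allows a share of up to 13.2%), 42.3% and 36.6% in DCIS and 78.9% and 77.0% in Tumor. Unthinned shares were 9.09% and 3.70%, 50.0% and 45.0%, and 88.6% and 91.1%. T cells can express Spp1 once activated, so their share is a comparison and not a clean background. Among T cell-like cells a thinned UMI of it was seen in 0% in Prepuberty and DCIS and in 37.7% and 23.9% in Tumor 1 and 2, with median depths of 1867 and 2526 UMIs against 6158 and 10187 in the macrophages. The macrophage share stood above that of T cell-like cells in each Tumor library, and the part of free RNA in either was not tested.

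**Figure D1:**
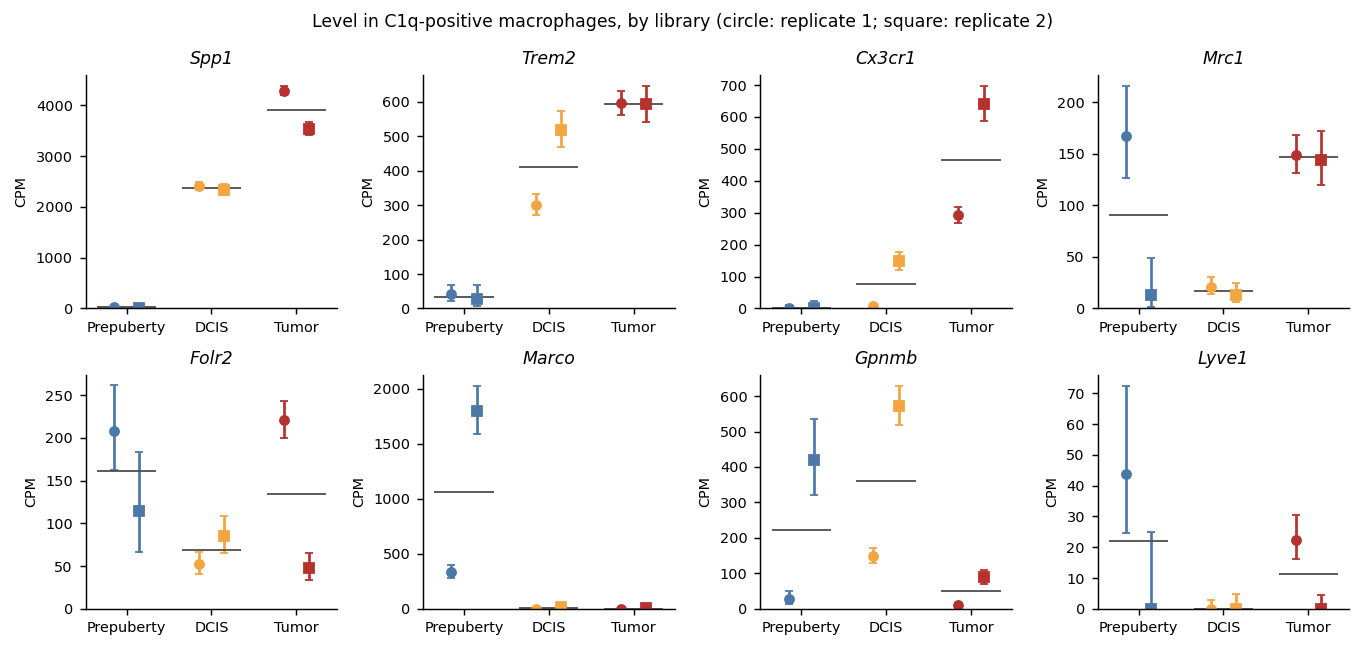
Level of each of 8 genes in C1q-positive macrophages, in CPM (linear axis from 0, own scale per gene), by state. Circles are library 1 and squares library 2 of a state, bars are 95% Poisson intervals that cover counting error only, and short lines are state means. Spp1 and Trem2 stand low in Prepuberty and higher in every DCIS and Tumor library, Cx3cr1 is highest in the Tumor libraries, and Marco is high in Prepuberty alone.

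Trem2, the receptor for lipids and lipoproteins that signals through TYROBP, rose in DCIS and in Tumor over Prepuberty. The level was 41.0 and 27.0 CPM in Prepuberty, 302 and 518 CPM in DCIS, and 595 and 593 CPM in Tumor (the first value of a pair is library 1), from 14, 4, 389, 386, 1090 and 497 UMIs. Every DCIS and Tumor library stood above both Prepuberty libraries. The log2 fold change was 3.61 (SE 0.49, edgeR adjusted p = 0.0177) for DCIS against Prepuberty, where 0.197% of 6600 genes passed in either direction, and 3.62 (SE 0.49, edgeR adjusted p = 0.00215) for Tumor against Prepuberty, where 8.62% passed.

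The DCIS call was the less stable of the calls on Trem2. It ended without Prepuberty 1 (edgeR adjusted p = 0.112), without Prepuberty 2 (0.0840), without DCIS 2 (0.0676) and in cells gated on C1q and Csf1r (at least 5 C1q UMIs and 1 Csf1r UMI) irrespective of cluster (0.572), while the fold change stayed between 2.90 and 4.23 over these and all other settings. The Tumor call ended in that gate alone (0.133), which held 13 and 6 Prepuberty cells and whose fit therefore left out Prepuberty 2. Between Tumor and DCIS the fold change was 0.01 (SE 0.39, edgeR adjusted p = 0.994). Plain CPM of the Tumor and DCIS libraries did not overlap, but after TMM scaling they did, at 363 and 598 CPM in DCIS and 539 and 413 CPM in Tumor. Thinned shares of cells with a Trem2 UMI were 3.23% and 7.69% in Prepuberty, 30.4% and 31.3% in DCIS and 58.2% and 66.2% in Tumor, and 0% in T cell-like cells of every library.

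Gpnmb, a lysosomal and surface glycoprotein of phagocytes loaded with lipid, varied as much within states as between them. It measured 26.4 and 419 CPM in Prepuberty, 150 and 572 CPM in DCIS, and 11.5 and 88.2 CPM in Tumor. Both Tumor libraries lay under both DCIS libraries. A single cell, however, held 66.1% of the Gpnmb UMIs of the C1q-positive macrophages in Prepuberty 2 and 66.2% in Tumor 2. The fold change was 1.01 (edgeR adjusted p = 0.758) for DCIS against Prepuberty, -3.55 (SE 1.05, edgeR adjusted p = 0.0575) for Tumor against DCIS and -2.54 (edgeR adjusted p = 0.169) for Tumor against Prepuberty. None passed. The Tumor against DCIS value passed with Tumor 2 left out (0.00949), in all cells of the cluster (0.0122) and in 7 other settings without a block, and that of Tumor against Prepuberty without Tumor 2 (-4.22, edgeR adjusted p = 0.0277) and with no filter (4.6e-05).

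Cx3cr1, the receptor of the membrane-bound chemokine fractalkine, was at 0 UMIs in both Prepuberty libraries and differed between the libraries of DCIS. Its level was 6.20 and 148 CPM in DCIS 1 and 2 and 292 and 641 CPM in Tumor 1 and 2, from 8, 110, 534 and 538 UMIs. The level of DCIS 1 lay under what 3 counts would be in either Prepuberty library, 8.78 and 20.3 CPM. In DCIS 2, 1 cell held 72.7% of the Cx3cr1 UMIs of the C1q-positive macrophages. Against a floor of 3 counts over the Prepuberty libraries, Cx3cr1 was at least 9.47-fold higher in DCIS, a bound that became 1.01-fold without DCIS 2 and 24.1-fold without DCIS 1, and at least 65.5-fold higher in Tumor (19.8 to 105 with 1 library left out).

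Tumor macrophages held 6.92 times the Cx3cr1 UMIs per total of DCIS macrophages (95% counting interval 5.72 to 8.44). That ratio was 2.72 without DCIS 1 and 64.7 without DCIS 2, so its size rested on which DCIS library was used, while its direction did not. Thinned shares of cells with a Cx3cr1 UMI were 0 of 62 and 0 of 26 cells in Prepuberty, which allow up to 5.78% and 13.2%, 1.19% and 3.57% in DCIS, and 40.2% and 52.7% in Tumor. Both DCIS shares lay under what the 0 counts of Prepuberty allow. The thinned share in T cell-like cells was at most 1.49%, in Tumor 2, which is above the share of DCIS 1.

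Marco, a class A scavenger receptor that binds bacteria and particles, ran the other way. It measured 334 and 1796 CPM in Prepuberty, 0 and 16.1 CPM in DCIS and 0 and 2.38 CPM in Tumor, from 114, 266, 0, 12, 0 and 2 UMIs. A few cells carried it: of the Marco UMIs of the C1q-positive macrophages, the highest cell held 42.1% in Prepuberty 1 and 49.2% in Prepuberty 2. From the sums it was 132-fold higher in Prepuberty than in DCIS (74.4 to 257, and 48.2 to 305 without DCIS 1 or a Prepuberty library). Without DCIS 2 the DCIS side was at 0 UMIs and the value was at least 334-fold. The ratio of Prepuberty to Tumor was 1036 (285 to 8588) on only 2 Tumor UMIs, and it was 2399 without Prepuberty 1, 446 without Prepuberty 2, 326 without Tumor 1 and at least 474 without Tumor 2. All 12 DCIS UMIs came from DCIS 2, so the ratio of DCIS to Tumor of 7.88 (1.75 to 72.5) rested on that library and could not be formed without it. Thinned shares were 14.5% and 23.1% in Prepuberty, 0% and 0.893% in DCIS, and 0% in both Tumor libraries, where 0 of 251 and 0 of 74 cells allow up to 1.46% and 4.86%.

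**Figure D2:**
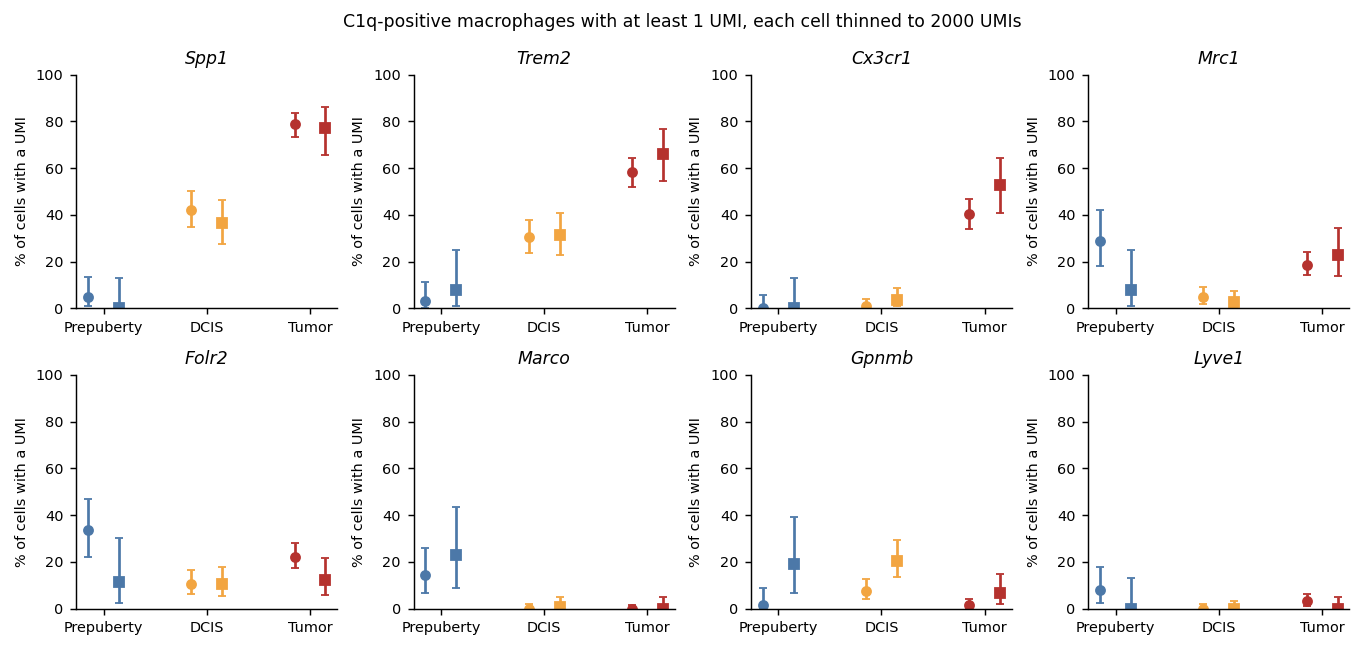
Share of C1q-positive macrophages with at least 1 UMI of each gene, in percent, after thinning every cell to 2000 UMIs, by state. Circles are library 1 and squares library 2, and bars are exact binomial 95% intervals that cover counting error only. The Tumor libraries reach 78.9% and 77.0% for Spp1, 40.2% and 52.7% for Cx3cr1 and 58.2% and 66.2% for Trem2, and Marco is seen in 14.5% and 23.1% of the cells in Prepuberty.

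Mrc1, Folr2 and Lyve1 are members of the tissue-resident type: the mannose receptor, which takes up glycoproteins, a folate receptor and a hyaluronan receptor. Mrc1 measured 167 and 13.5 CPM in Prepuberty, 20.9 and 13.4 CPM in DCIS, and 149 and 144 CPM in Tumor. The Prepuberty libraries stood an order apart, the lower on 2 UMIs, while both Tumor libraries lay above both DCIS libraries. Mrc1 rose in Tumor over DCIS by 2.51 on the log2 scale (SE 0.70, edgeR adjusted p = 0.0470), where 9.2% of genes passed in either direction.

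That call sat at the threshold. It ended with DESeq2 (adjusted p = 0.0525), without DCIS 1 or DCIS 2 (edgeR adjusted p = 0.221 each), with all cells of the cluster (0.112), under a mitochondrial limit of 5% (0.0680) and with the sums thinned to the smallest (0.137). The fold change was -2.45 (SE 0.74, edgeR adjusted p = 0.251) for DCIS against Prepuberty and 0.06 (edgeR adjusted p = 0.970) for Tumor against Prepuberty. The former passed without Prepuberty 2 (edgeR adjusted p = 0.0475), without Tumor 1 (0.0450) and with no filter on low counts (0.000845), and it was 0.72 without Prepuberty 1, on 2 Prepuberty UMIs.

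Folr2 measured 208 and 115 CPM in Prepuberty, 52.7 and 84.6 CPM in DCIS, and 221 and 47.7 CPM in Tumor. The DCIS libraries lay under the Prepuberty libraries, and the Tumor libraries stood on either side of both. No comparison of Folr2 passed, with fold changes of -1.19, 0.57 and -0.62 in the order DCIS against Prepuberty, Tumor against DCIS and Tumor against Prepuberty (edgeR adjusted p = 0.573, 0.615 and 0.626). Tumor 1 decided the last value, which was -2.44 without it (edgeR adjusted p = 0.00475).

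Lyve1 had UMIs in 1 library of Prepuberty and 1 of Tumor: 43.9 CPM (15 UMIs) in Prepuberty 1 and 22.4 CPM (41 UMIs) in Tumor 1, and 0 UMIs in the other 4. From the sums it was at least 20.8-fold higher in Prepuberty than in DCIS and at least 10.4-fold higher in Tumor than in DCIS, each carried by 1 library. Tumor against Prepuberty gave -1.45 (edgeR adjusted p = 0.520). Without Tumor 1 the Tumor side was at 0 UMIs, and Lyve1 was at least 8.57-fold higher in Prepuberty from the sums. Folr2 and Lyve1 stood higher in Tumor 1 than in Tumor 2, while Mrc1 was nearly level between them.

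As background to such order statements, among all 6600 genes of the macrophage fits 21.4% were higher and 23.8% lower in both DCIS libraries than in both Prepuberty libraries on plain CPM, 53.6% and 13.7% for Tumor against DCIS, and 44.5% and 13.3% for Tumor against Prepuberty. A lack of overlap between 2 and 2 libraries was common. In counts of calls, 13 genes passed for DCIS against Prepuberty (10 higher, 0.152%, and 3 lower, 0.0455%, with 721 at an unadjusted p under 0.05), 607 for Tumor against DCIS (249, 3.77%, and 358, 5.42%) and 569 for Tumor against Prepuberty (195, 2.95%, and 374, 5.67%). Scaling by library totals turned the majority in both Tumor comparisons, with 929 higher and 200 lower against DCIS and 480 and 277 against Prepuberty, and gave 12 and 8 for DCIS against Prepuberty.

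The members were then read together within single cells of the same library, which no comparison of states above uses. Macrophages with a Spp1 UMI held more Trem2 than those without in DCIS, 407 against 113 CPM in DCIS 1 and 812 against 118 CPM in DCIS 2. In Tumor 1 the values were 593 and 632 CPM. The genes of the resident type ran the other way in Tumor 1, with Folr2 at 190 against 684, Mrc1 at 137 against 333 and Lyve1 at 16.9 against 105 CPM in cells with and without Spp1. In DCIS the order was mixed: Folr2 was at 53.2 against 52.0 CPM in DCIS 1 and 112 against 47.6 CPM in DCIS 2, and Mrc1 at 13.3 against 34.7 CPM and 18.6 against 6.35 CPM. Cells with a Spp1 UMI were deeper, with medians of 8315.5 against 4674.5 UMIs in DCIS 1, 7149.5 against 4247 in DCIS 2 and 6539 against 4139 in Tumor 1, and the part of depth was not tested.

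Cells with a Cx3cr1 UMI held less Mrc1 than those without in both Tumor libraries, 94.1 against 246 CPM in Tumor 1 and 110 against 308 CPM in Tumor 2. Split the other way, cells with a Mrc1 UMI held slightly more Cx3cr1, 315 against 280 CPM and 651 against 632 CPM, so the order depended on which gene split the cells. Cells with Cx3cr1 also held less Spp1 in Tumor, 3545 against 5617 CPM and 3303 against 4683 CPM, and more in DCIS 2, 4140 against 2097 CPM. They were deeper in both Tumor libraries, with medians of 7504.5 against 4885 and 10479 against 5967 UMIs, and the part of depth was not tested. In Tumor 1 Lyve1 was at 1.71 against 58.9 CPM. These are values of pooled cells within a library and carry no test.

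Outside macrophages, 4 of the 8 members passed the filter on low counts in epithelial-like cells (Spp1, Cx3cr1, Gpnmb and Folr2) and 4 in fibroblast-like cells (Spp1, Cx3cr1, Gpnmb and Trem2). Spp1 had the most UMIs of them in the DCIS and Tumor libraries of both classes. Over all genes, 22.3%, 44.9% and 38.5% were higher in both libraries of the later state of the epithelial-like class, for DCIS against Prepuberty, Tumor against DCIS and Tumor against Prepuberty, and 32.1%, 14.6% and 17.5% lower. In fibroblast-like cells the shares were 14.9%, 52.6% and 38.5% higher and 36.3%, 12.7% and 12.2% lower. In epithelial-like cells it measured 117 and 55.6 CPM in Prepuberty, 238 and 375 CPM in DCIS, and 6015 and 1554 CPM in Tumor. In Tumor 1 and both Prepuberty libraries the epithelial-like level stood above that of the macrophages, and in the other 3 below it. The gene rose by 5.25 on the log2 scale in Tumor over Prepuberty (SE 0.88, edgeR adjusted p = 0.0321, where 5.79% of 13340 genes passed). The call ended with only the 4 libraries compared (0.0515) and without Prepuberty 1 (0.116), Prepuberty 2 (0.143), DCIS 1 (0.0512) or DCIS 2 (0.0504). Tumor against DCIS gave 3.34 (SE 0.80, edgeR adjusted p = 0.0758), and 4.05 without Tumor 2 (0.0149). For DCIS against Prepuberty the fold change was 1.92 (edgeR adjusted p = 0.389), with 0 genes called of 13340 (0%), 1647 at an unadjusted p under 0.05 and 307 by DESeq2.

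A Spp1 UMI was found in 19.6% and 21.2% of epithelial-like cells of Prepuberty, 31.3% and 23.9% of DCIS and 99.7% and 81.4% of Tumor, and after thinning in 7.94% and 5.43%, 13.1% and 11.3%, and 94.8% and 53.4%. In epithelial-like cells with no C1q UMI at all the level was 121 and 54.1, 236 and 352, and 6272 and 1583 CPM, close to the level in all of them. All 5 epithelial-like clusters held Spp1 in the tumours, at 4043 to 7985 CPM in Tumor 1 and 214 to 3337 CPM in Tumor 2. As a share of all Spp1 UMIs of a library, C1q-positive macrophages gave 27.7% and 18.5% in DCIS 1 and 2 and 2.34% and 2.41% in Tumor 1 and 2, where the libraries held 336476 and 123083 Spp1 UMIs against 11238 and 9415 in DCIS. Epithelial-like cells gave 34.2% and 60.9% in DCIS and 74.0% and 32.5% in Tumor.

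Cx3cr1 in epithelial-like cells was low, and in Tumor it lay under the level of the other states, unlike in the macrophages. It measured 2.28 and 6.75 CPM in Prepuberty, 17.9 and 67.2 CPM in DCIS, and 0.68 and 0.62 CPM in Tumor. Both DCIS libraries stood above all others. The clusters that make up the class differed between states: of the epithelial-like cells, cluster 12 supplied 327 of 779 and 56 of 146 in Prepuberty, 147 of 1192 and 341 of 913 in DCIS, and 20 of 2629 and 50 of 1283 in Tumor, and cluster 9 went from 23 and 27 cells in DCIS to 737 and 238 in Tumor. Within cluster 1, Cx3cr1 was likewise lower in Tumor, at 0.96 and 1.41 CPM against 25.1 and 57.9 CPM in DCIS. In the whole class Cx3cr1 fell by 6.40 in Tumor against DCIS (SE 0.84, edgeR adjusted p = 0.0380, where 0.982% of genes passed), and did not pass with a replicate block. The call ended with only the 4 libraries compared (0.0751), without Prepuberty 1 (0.0777) or 2 (0.0794) and without DCIS 2 (0.132). Neither DCIS against Prepuberty (3.58, edgeR adjusted p = 0.280) nor Tumor against Prepuberty (-2.82, 0.0796) passed, though both did with DESeq2 (adjusted p = 0.000645 and 0.00241) and with no filter on low counts (edgeR adjusted p = 2.7e-11 and 9.7e-07). Over the same libraries C1q in these cells was 1.06 and 2.11, 3.16 and 3.53, and 16.4 and 1.44 CPM, and cells with no C1q UMI held 16.8 and 70.2 CPM of Cx3cr1 in DCIS, as much as all of them. Epithelial-like cells gave 64.9% and 72.9% of all Cx3cr1 UMIs in DCIS 1 and 2 against 1.80% and 7.81% from C1q-positive macrophages, and in Tumor the macrophages gave 90.2% and 86.8%.

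Folr2 was low in epithelial-like cells as well. It measured 10.6 and 5.90 CPM in Prepuberty, 6.76 and 18.5 CPM in DCIS, and 0.87 and 0.23 CPM in Tumor. Folr2 fell by 4.10 in Tumor against Prepuberty (SE 0.86, edgeR adjusted p = 0.0427), and did not pass with a replicate block. This call ended with only the 4 libraries compared (0.0699) and without Prepuberty 1 (0.201), Prepuberty 2 (0.121), DCIS 1 (0.0613) or DCIS 2 (0.0706). Tumor against DCIS gave -4.77 (SE 0.87, edgeR adjusted p = 0.0548), and passed without Tumor 1 (0.0262) or Tumor 2 (0.0384). Cluster 12 of the epithelial-like cells was the highest for Cx3cr1, at 33.3 and 148 CPM in DCIS, and for Folr2, at 48.8 and 47.7 CPM. This cluster gave 105 of the Folr2 UMIs of Prepuberty 1 and 229 of those of DCIS 2, most of the class in each, and it made up a far smaller share of the class in Tumor, as given above. Within it, Folr2 measured 21.5 and 9.94 CPM in Prepuberty and 3.14 and 8.49 CPM in Tumor, the latter on 1 and 6 UMIs, and the part of the class's makeup in the fall was not tested. Marco had no UMI in epithelial-like cells, and Gpnmb was at most 0.84 CPM.

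In fibroblast-like cells Spp1 measured 140 and 49.7 CPM in Prepuberty, 704 and 118 CPM in DCIS, and 2599 and 5146 CPM in Tumor. It rose by 4.85 in Tumor over Prepuberty (SE 0.97, edgeR adjusted p = 0.0368, where 5.64% of 11609 genes passed), and the call ended without Prepuberty 1 (0.136), Prepuberty 2 (0.248) or Tumor 2 (0.0699). Tumor against DCIS gave 2.54 (edgeR adjusted p = 0.111), a value that passed with a replicate block. Cells with a T antigen UMI made up 17.6% and 45.1% of the fibroblast-like cells of Tumor 1 and 2, against at most 0.64% in the other libraries. In these cells all 8 fibroblast markers were seen in every library, at 7164 to 32363 CPM summed, and the epithelial list summed to 312 and 152 CPM in Tumor against 14.7 to 78.2 CPM in the rest. The part of these cells in the Spp1 result was not tested.

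Cx3cr1 and Gpnmb fell in the fibroblast-like cells of Tumor. Cx3cr1 measured 2.36 and 8.87, 15.4 and 25.04, and 1.98 and 1.35 CPM in Prepuberty, DCIS and Tumor, and fell by 4.26 in Tumor against DCIS (SE 0.81, edgeR adjusted p = 0.0316, where 7.34% of genes passed). Its call ended without DCIS 1 (0.109), DCIS 2 (0.181) or Tumor 2 (0.117). Cluster 10 held 154 of 470 and 172 of 738 fibroblast-like cells in DCIS and 98 of 176 and 111 of 195 in Tumor, and within it Cx3cr1 measured 3.19 and 1.57 CPM in the Tumor libraries against 9.15 and 17.4 CPM in those of DCIS. Gpnmb measured 11.4 and 20.4, 33.1 and 22.8, and 0.99 and 3.36 CPM. It fell by 4.29 in Tumor against DCIS (SE 0.56, edgeR adjusted p = 0.0143) and by 3.26 against Prepuberty (SE 0.55, edgeR adjusted p = 0.0238). The former call ended without DCIS 1 (0.0750) or DCIS 2 (0.0897), and the latter without Prepuberty 1 (0.0878), Prepuberty 2 (0.148) or DCIS 1 (0.0522). For DCIS against Prepuberty 0 genes were called in this class (0%), with 895 at an unadjusted p under 0.05 and 59 by DESeq2. Trem2 was at most 15.1 CPM in fibroblast-like cells, in Tumor 2, and passed in no comparison there.

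**Figure D3:**
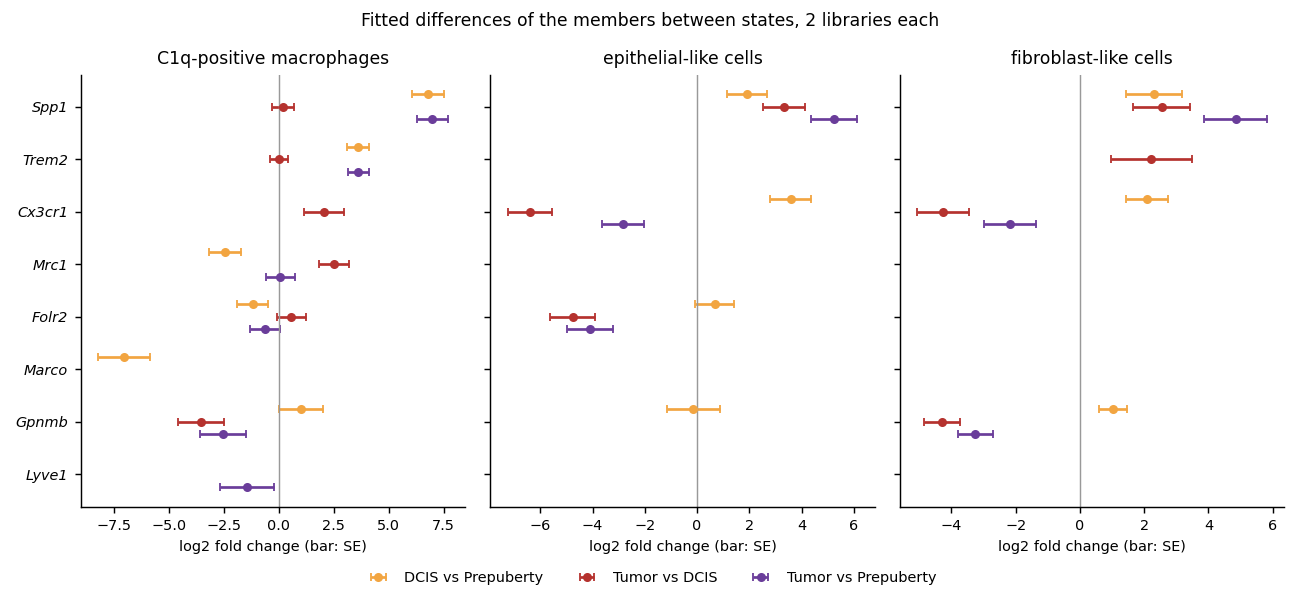
Fitted log2 fold changes of the members (horizontal axis, with bars of 1 SE) in C1q-positive macrophages, epithelial-like and fibroblast-like cells, for DCIS against Prepuberty, Tumor against DCIS and Tumor against Prepuberty. Members with 3 or fewer UMIs in a state are left out, and the values of Spp1, Cx3cr1 and Marco in macrophages are a description. For Tumor against DCIS, Cx3cr1 lies at 2.06 in macrophages and at -6.40 and -4.26 in the other 2 classes.

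The remaining classes were not fitted and are given as levels. The Schwann-like, T cell-like and pericyte or smooth muscle-like classes had fewer than 10 cells in at least 1 library. Spp1 was high in Schwann-like cells, the glia of nerves, at 901 and 1485 CPM in Prepuberty and 2700 and 1759 CPM in DCIS. In myoepithelial-like cells it went from at most 17.8 CPM in the glands to 10709 and 1966 CPM in Tumor. In C1q-low myeloid cells it measured 43.7 and 58.7, 1112 and 1178, and 3453 and 859 CPM. Endothelial-like cells held at most 171 CPM and T cell-like cells at most 244 CPM, both in Tumor 2.

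Among classes with at least 10 cells, C1q-positive macrophages held the most Folr2 in all 6 libraries. They held the most Cx3cr1 in DCIS 2 and both Tumor libraries, whereas epithelial-like and fibroblast-like cells stood above them in Prepuberty and DCIS 1. Gpnmb was higher in C1q-low myeloid cells than in C1q-positive macrophages in Prepuberty 1, DCIS 1 and Tumor 1, and lower in the other 3 libraries. Lyve1 had its highest median over libraries in Schwann-like cells, at 9.64 CPM, on few UMIs. Endothelial-like cells, which include vessels known to carry LYVE1 where they are lymphatic, held 30.1 and 8.29 CPM of Lyve1 in Prepuberty, 3.90 and 5.06 CPM in DCIS and 3.96 and 0 CPM in Tumor. They gave 83.0% and 85.1% of all Lyve1 UMIs in Prepuberty, whereas in Tumor 1 C1q-positive macrophages gave 73.2%. Marco came from the myeloid cluster almost alone: C1q-positive cells gave 91.9% of its UMIs in Prepuberty 1 and 56.8% in Prepuberty 2, and C1q-low cells a further 37.4% in the latter.

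C1q-low myeloid cells shared some of the pattern. Trem2 measured 0 and 15.5 CPM there in Prepuberty, 143 and 121 CPM in DCIS and 206 and 123 CPM in Tumor, under the C1q-positive cells of the same library in each case. Cx3cr1 was at 0 in Prepuberty, 11.6 and 35.5 CPM in DCIS and 24.4 and 67.1 CPM in Tumor. The C1q-low cells of Tumor 2 held osteoclast genes, with 7905 CPM of Ctsk, 6980 CPM of Acp5 and 3367 CPM of Mmp9.

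**Figure D4:**
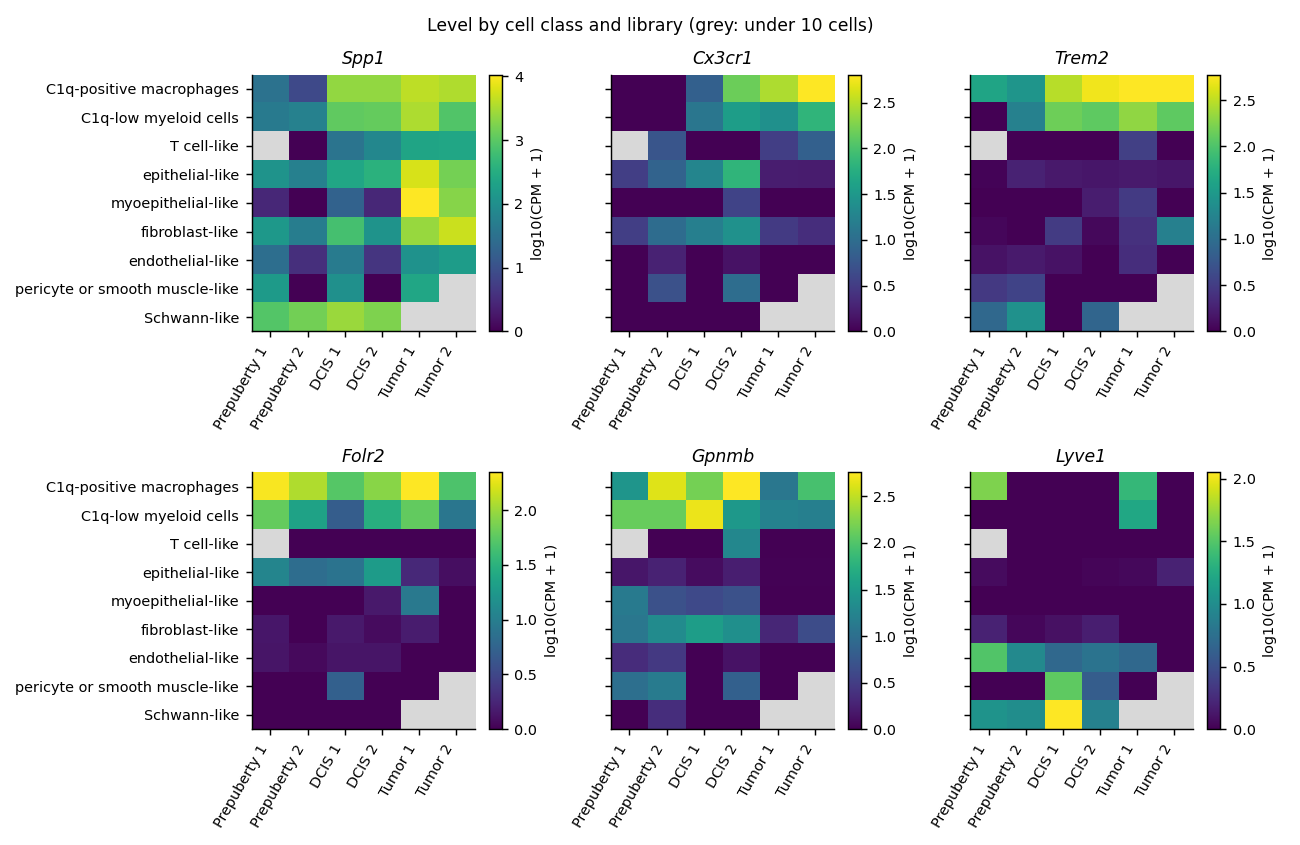
Level of Spp1, Cx3cr1, Trem2, Folr2, Gpnmb and Lyve1 as log10(CPM + 1) in 9 cell classes (vertical) and 6 libraries (horizontal). Each panel has its own colour scale, and grey marks fewer than 10 cells. Spp1 is high in several classes of the Tumor libraries, with 6015 CPM in the epithelial-like cells of Tumor 1, whereas the Tumor signal of Cx3cr1 lies in C1q-positive macrophages, at 292 and 641 CPM.

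Lists of related genes were read from the macrophage fits to place the members among their pathways, and each is described by its counts and its median log2 fold change beside the median of all genes (0.06 for DCIS against Prepuberty, 0.07 for Tumor against DCIS and 0.16 for Tumor against Prepuberty). The shares of all genes that passed as higher and as lower were 0.152% and 0.0455%, 3.77% and 5.42%, and 2.95% and 5.67% in the same order. For DCIS against Prepuberty, Cd9 alone passed among the genes of all 9 lists (2.95, SE 0.41, edgeR adjusted p = 0.0179). CD9 is a tetraspanin of the lipid-associated programme that goes with Trem2. That list of 19 measured genes had a median of 0.22. The resident and perivascular list stood lowest, with a median of -1.15 and 3 of 17 genes above 0, and the monocyte list highest, with a median of 0.88 (0.84 with genes at 0 UMIs set to their bound).

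For Tumor against DCIS, the list of Cx3cr1-type tissue macrophage genes had 6 of 12 genes higher and 1 lower, with a median of 1.32. Gpr34, a receptor of lysophospholipids, was 39.9 times higher per UMI (13.4 to 195) and P2ry12, a nucleotide receptor, 47.2 times (8.17 to 1895), each on 1 to 3 DCIS counts. Vcam1, an adhesion molecule, fell by 2.04 (edgeR adjusted p = 0.0296). Without cycling cells the counts were 5 and 1, without DCIS 1 they were 1 and 0, without DCIS 2 they were 3 and 0, and with thinned sums 1 and 0. For Tumor against Prepuberty 8 rose and 1 fell, with a median of 2.68, and without Prepuberty 1 the counts were 2 and 0. In that comparison Tgfbr1, a receptor of TGF-beta, was 29.8 times higher (8.18 to 247) and Gpr34 at least 9.59-fold higher.

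Genes of lipid handling did not move as one with Trem2. Of the 19 lipid-associated genes, 5 fell and 0 rose for Tumor against DCIS, with a median of -0.91 (4 fell without DCIS 1 and 3 without cycling cells). Fabp4, a fatty acid carrier, measured 594 and 513, 638 and 399, and 3.82 and 8.35 CPM in Prepuberty, DCIS and Tumor, and fell by 7.04 (SE 0.55, edgeR adjusted p = 0.000201). Fabp4 is also a leading gene of endothelial-like cluster 6, which had 368 and 455, 165 and 181, and 68 and 29 cells in the 3 states, and the endothelial list summed to 35.1 and 67.5, 43.4 and 24.2, and 16.4 and 8.35 CPM within the macrophages. The part of such RNA in the fall was not tested. Fabp5 fell by 3.22 (SE 0.47, edgeR adjusted p = 0.00472), from 4277 and 4268 CPM in DCIS to 608 and 745 CPM. Against Prepuberty 2 rose in Tumor, Itgax (2.46, edgeR adjusted p = 0.0428) and Cd9 (2.41, 0.00565), and 3 fell, among them Fabp4 and Cd36, a receptor of fatty acids and oxidized lipoprotein (-4.02, edgeR adjusted p = 0.00227).

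Among the classical activation genes, 4 of 15 fell and 0 rose in Tumor against DCIS, with a median of -1.48, and 7 fell against Prepuberty, with a median of -2.65. The count against DCIS was 2 without DCIS 1 and 11 without Tumor 1. Ccl5, a chemokine for T cells and monocytes, measured 15405 and 22462, 17330 and 22978, and 151 and 0 CPM in the 3 states and fell by 8.40 (SE 1.62, edgeR adjusted p = 0.0136). Nos2, the inducible nitric oxide synthase, fell by 3.40 (edgeR adjusted p = 0.00592) and by 4.29 against Prepuberty (0.00227). Of 13 alternative activation genes, 1 rose and 1 fell in Tumor against DCIS (over all genes, 3.77% rose and 5.42% fell), with a median of 0.57. These were Mgl2, a lectin, at 32.8 times the DCIS level per UMI (5.57 to 1323) and Ccl22, which fell by 2.48 (edgeR adjusted p = 0.0299). Fn1, fibronectin, rose by 5.16 against Prepuberty (edgeR adjusted p = 0.00359), the single call of that list there.

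Of 17 resident and perivascular genes, 2 fell and 0 rose in Tumor against DCIS, where 5.42% of all genes fell and 3.77% rose. Pf4 fell by 2.20 and Igf1 fell by 1.84 (edgeR adjusted p = 0.0447 and 0.0220), with a median of 0.69 over the list, and 1 library set the rest: without Tumor 2, 6 rose and 1 fell, and without Tumor 1, 1 rose and 3 fell. Against Prepuberty 2 rose, among them Nrp1 (2.35, edgeR adjusted p = 0.0428), and 3 fell, among them Timd4, a receptor for phosphatidylserine on dying cells (-4.41, edgeR adjusted p = 0.00905). Without Tumor 1 the counts in that comparison were 1 and 8. Monocyte genes had 1 call higher and 2 lower of 11 in Tumor against DCIS, with a median of -0.04 that became -2.44 without Tumor 1, where 2 rose and 5 fell. Ccr2, the receptor that brings monocytes into tissue, measured 0 and 0, 6.20 and 12.1, and 72.6 and 254 CPM and rose by 3.56 (SE 0.60, edgeR adjusted p = 0.00903). Thbs1 fell by 3.83 and Hp by 2.26 (edgeR adjusted p = 0.00440 and 0.0319). Against Prepuberty 3 rose and 2 fell, with Ccr2 at least 21.1-fold higher in Tumor.

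Of 11 other scavenger receptors measured, Cd36 alone passed for Tumor against DCIS and fell by 3.003 (SE 0.53, edgeR adjusted p = 0.00951), a call that ended without cycling cells, and the list had a median of -0.57. Against Prepuberty, Cd36 and Timd4 fell. Of the 21 ligands, receptors and partners of the members that could be tested, 1 rose and 4 fell in Tumor against DCIS and likewise against Prepuberty. Over all genes 3.77% rose and 5.42% fell in the former comparison, and 2.95% and 5.67% in the latter. Itgb5, which pairs with the integrin subunit ITGAV to bind osteopontin, rose by 1.40 (edgeR adjusted p = 0.0425) and by 3.62 (0.00318), the latter call ending without Prepuberty 1. Mmp3, a protease that cleaves osteopontin, was among the 4 in each, at 52.7 and 47.3, 31.0 and 30.9, and 0 and 3.58 CPM in macrophages over the 3 states. Epithelial-like cells held much the same level, 32.1 and 50.2, 24.5 and 26.1, and 1.43 and 1.90 CPM, and fibroblast-like cells far more, 1759 and 1885, 4240 and 4631, and 171 and 1189 CPM. How much of the macrophage level of Mmp3 was free RNA was not tested. Under scaling by library totals, the medians of the partners, monocyte and scavenger lists for Tumor against DCIS were 0.12, 0.61 and 0.05, of the other sign than with TMM, where they were -0.44, -0.04 and -0.57. Of 10 proliferation genes, 6 rose in Tumor against DCIS, Birc5 by 3.18 and Top2a by 3.10 (edgeR adjusted p = 0.00697 and 0.0216).

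**Figure D5:**
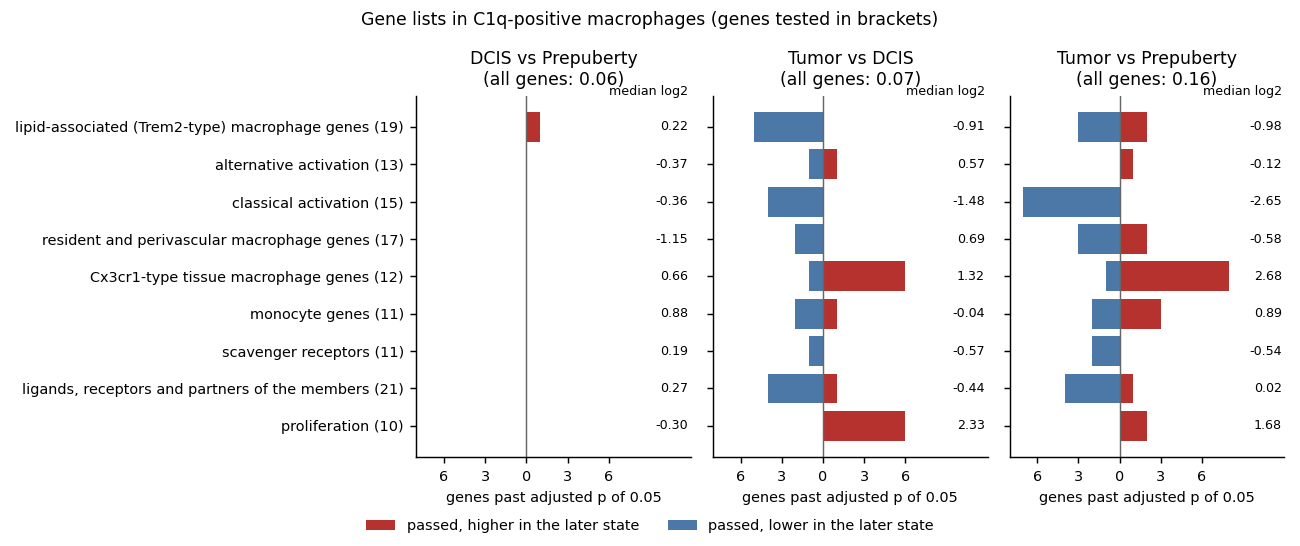
Number of genes per list that passed an adjusted p of 0.05 in C1q-positive macrophages, higher (to the right of 0) and lower (to the left), for the 3 comparisons of states, with the median log2 fold change of each list printed beside its bars. Of 12 Cx3cr1-type tissue macrophage genes, 6 passed as higher and 1 as lower in Tumor against DCIS and 8 and 1 against Prepuberty, and of 15 classical activation genes 0 and 4, and 0 and 7.

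Over 50 sums of 1 class in 1 library, the genes whose levels ran most like those of the members were ranked by Pearson correlation of log2(CPM + 10), as a description of points that share libraries and classes. Trem2 ran with Itgax (0.93) and Fcgr2b (0.92), Mrc1 with F13a1 (0.96) and Fcrls (0.93), Marco with Col19a1 (0.96) and Timd4 (0.95), and Folr2 with Cd72 and Tlr7 (0.90 each). Gpnmb ran with Clec4d (0.85) and Creg1 (0.84). The weaker matches were those of Cx3cr1, with Kcnj10 (0.82) and Bach2os (0.81), of Lyve1, with Sult1a1 (0.72) and Chp2 (0.71), and of Spp1, with Crip1 (0.70) and Haus8 (0.67).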

How the data were processed

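Per the file headers and labels, the authors deposited raw UMI counts per gene and cell from Cell Ranger 3.0.2, 1 matrix a library, and the submitters' processing notes give mm10. Here cells with at least 200 genes and under 10% mitochondrial UMIs were kept. Scrublet (scanpy 1.11.5, Python 3.11.15) marked only 50 doublets, so the highest scores were removed at 0.8% per 1000 cells. Of 23835 barcodes, 546 had too few genes, 1045 passed the mitochondrial limit and 707 were doublets. Deposited totals ran from 30041293 to 61479653 UMIs a library. Seurat 5.3.0 (R 4.3.3) integrated the libraries (2000 variable genes, 20 dimensions, resolution 0.8, 23 clusters). A cluster was named "-like" from at least 3 markers at 2-fold in 25% of its cells, and 7 clusters stayed unnamed. The names are rebuilt and can differ from the study's.

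UMIs were summed per library and class (at least 10 cells), since cells are not replicates, and fitted with the two-sided edgeR 4.0.16 quasi-likelihood test (TMM, filterByExpr, state as the term, all 6 libraries), with Benjamini-Hochberg adjustment over all genes tested and a threshold of 0.05. The fits were tested on simulated data. Levels are CPM without TMM. Intervals are at 95% (Poisson, exact binomial) and, like floors of 3 counts over a group, cover counting error only. A group at 0 UMIs gives a bound, and one with 1 to 3 UMIs a ratio with its interval. List genes named are the 2 with the largest change in each direction among those past the threshold. The 9 members, the lists and the markers were chosen with earlier results of these data known, and 1 member and 2 list genes are not reported here. Alternatives were DESeq2 1.42.0, RLE or totals-only scaling, no filter, 4 libraries, a replicate block, each library left out, thinned sums, and other cell, mitochondrial and C1q limits. The C1q minimum of 5 UMIs, totals-only scaling and the addition of unnamed cluster 0 were chosen after seeing the data. No group had the 4 libraries needed to test for an outlying one.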

Additional observations from a re-analysis of the deposited data

Results flagged for a closer look

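Cx3cr1 was singled out because every Tumor library moved one way in macrophages and the other way in another class. For Tumor against DCIS, the log2 fold change in C1q-positive macrophages (2.06) exceeded that in epithelial-like cells (-6.40) by 8.46 and that in fibroblast-like cells (-4.26) by 6.32. The macrophage value ran from 1.05 to 5.53 over the settings, depending on which DCIS library was used. For Tumor against Prepuberty it was -2.82 in epithelial-like and -2.17 in fibroblast-like cells, while both Tumor libraries stood above the 0 UMIs of both Prepuberty libraries in macrophages. These differences between classes were not tested. The epithelial-like levels were as large in cells with no C1q UMI, at 16.8 and 70.2 CPM in DCIS and 0.76 and 0.61 CPM in Tumor.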

How the results depend on the processing

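With 2 libraries a state, calls depended on single libraries, and the causes were not tested beyond what each setting removes. Over members and settings, 454 values stayed the same. They kept direction and side of the threshold or, where no test was made, direction with a shift under the SD between libraries. Of the rest, 38 lost the threshold, 36 gained it, 15 without a test moved by at least that SD and 22 changed sign, leaving out 5 with a state at 0 UMIs. Of the gains, 12 came with no filter and 5 with DESeq2. Genes called in macrophages for DCIS against Prepuberty (13) were 58 with DESeq2, 177 with no filter, 20 with library totals only, 41 with 4 libraries, 0 in the C1q gate, 7 at a C1q minimum of 5 and 4 to 132 with 1 library left out. For Tumor against DCIS (607) they were 1108 with no filter, 1129 with totals (929 higher and 200 lower, against 249 and 358), 142 in the gate, 271 without cycling cells, 130 with thinned sums and 92 to 1064 with 1 library left out, and for Tumor against Prepuberty (569) they were 947 with no filter, 329 with 4 libraries, 12 in the gate, 312 thinned and 199 to 900. In the epithelial-like class DESeq2, no filter and 4 libraries gave 307, 695 and 1 for DCIS against Prepuberty (0), 1592, 1982 and 14 for Tumor against DCIS (131), and 2270, 2690 and 223 for Tumor against Prepuberty (772), with 0 to 2, 0 to 1113 and 0 to 1520 on leaving out 1 library. In fibroblast-like cells DESeq2 and no filter gave 59 and 263 (0), 1831 and 2480 (852), and 1507 and 2280 (655) in the same order, with 0, 0 to 1838 and 0 to 1351 on leaving out 1 library. The middle count was 1768 with totals, 466 with 4 libraries and 1736 with cluster 0, and the last 1164 with cluster 0. Totals moved the split of higher and lower calls for Tumor against DCIS and Prepuberty from 40 and 91 to 85 and 51 and from 351 and 421 to 542 and 251 in epithelial-like cells, and from 456 and 396 to 1500 and 268 and from 443 and 212 to 779 and 152 in fibroblast-like cells.

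The labels do not tie equal numbers across states, and deviations of equally numbered libraries correlated at 0.11, 0.04 and 0.03 in macrophages, 0.07, -0.08 and -0.03 in epithelial-like and 0.30, 0.14 and 0.18 in fibroblast-like cells. With a replicate block the counts were 66 in macrophages for DCIS against Prepuberty, 0 and 253 in epithelial-like cells for Tumor against DCIS and Prepuberty, and 2 and 989 in fibroblast-like cells for DCIS and Tumor against Prepuberty. Under the block the epithelial-like calls on Cx3cr1 (adjusted p = 0.0657) and Folr2 (0.0714) ended, and those on Gpnmb in macrophages in Tumor against DCIS (7.9e-05) and Prepuberty (0.00331) and in fibroblast-like cells on Spp1 in Tumor against DCIS (0.0428) were gained.

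Signs turned for some members, given here with the range over all libraries left out in turn. In macrophages, DCIS against Prepuberty, Mrc1 was 0.72 without Prepuberty 1 (-3.24 to 0.72) and Gpnmb -0.15 without DCIS 2 (-0.15 to 3.72). For Tumor against DCIS, Spp1 was -0.17 without Tumor 1 (-0.17 to 0.50) and -0.25 in the gate, Folr2 -1.25 without Tumor 1 (-1.25 to 1.35), and Trem2 -0.0038 with no filter, -0.018 with 4 libraries, -0.23 with all cluster cells, -0.15 at a C1q minimum of 5 and -0.051, -0.34 and -0.20 without Prepuberty 2, DCIS 1 or Tumor 1 (-0.34 to 0.38). For Tumor against Prepuberty, Mrc1 was -0.79 and -0.20 without Prepuberty 2 or Tumor 1 (-0.79 to 3.22), -0.16 in the gate and -0.11 at a mitochondrial limit of 5%, Gpnmb 0.10 without Prepuberty 2 (-4.22 to 0.10) and Folr2 0.14 and 0.16 without Prepuberty 1 or Tumor 2 (-2.44 to 0.16). In epithelial-like cells, DCIS against Prepuberty, Gpnmb was 0.12 and 0.44 without Prepuberty 2 or DCIS 1 (-1.18 to 0.44) and Folr2 -0.28 without DCIS 2 (-0.28 to 1.36). An arm left with 1 library is assumed to vary like the other states. The 27 macrophages of Prepuberty 2 set the lowest depth.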

Other observations

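C1q-low myeloid cells held 2 groups of genes of other myeloid types that the comparisons above do not use. The osteoclast list (8 genes) summed to 402 to 736 CPM in Prepuberty, DCIS and Tumor 1 and to 19175 CPM in Tumor 2, where all 8 genes had UMIs. The neutrophil list summed to 481 and 235 CPM in Prepuberty, 1705 and 78.1 CPM in DCIS and 4943 and 10847 CPM in Tumor. Dendritic cell genes were low throughout, at 34.0 to 245 CPM, and Xcr1 and Clec9a, markers of cross-presenting dendritic cells, had no UMI in any library. These are levels of 33 to 153 cells a library and carry no test.

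A few sums outside the myeloid cluster also held members. Trem2 had 19 UMIs in 101 Schwann-like cells of Prepuberty 2 (24.6 CPM), against 4 UMIs in the 27 C1q-positive macrophages of that library. Lyve1 stood at 33.6 CPM in pericyte or smooth muscle-like cells of DCIS 1, on 8 UMIs. Gpnmb stood at 98.1 and 27.3 CPM in unnamed cluster 13 of Prepuberty 1 and 2, on 17 and 8 UMIs.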
